A study of Mus musculus with 9 samples.

Results

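A set of 10 genes of de novo fatty acid synthesis was followed in basal keratinocytes of mouse footpad skin: the transcription factor gene Srebf1 and 9 lipogenic enzyme genes that are textbook targets of its product (Acly, Me1, Acaca, Fasn, Elovl6, Scd1, Scd2, Fads1 and Fads2). They were chosen by gene symbol, and all 10 were found among the 22399 genes of the deposited expression table. RNA was sequenced from 9 samples of interfollicular basal cells of plantar skin, all from wild-type C57BL/6 mice, with 3 samples in each of 3 groups. Control mice were 5 months old and on a normal diet. HFD mice were 5 months old and on a high-fat diet. Aged mice were 24 months old, with no diet named in the labels. In every group the fat under the skin was cut away, the skin was digested with trypsin, and cells positive for CD49f (integrin alpha 6, carried by basal cells) and negative for CD34 (carried by hair follicle stem cells) were sorted. Nothing in the labels ties the 3 samples of a group to separate animals, so a p-value measures sample-to-sample spread that may be purely technical.

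Srebf1 encodes SREBP-1, a transcription factor made as a precursor that sits in the endoplasmic reticulum membrane. The escort protein SCAP carries the precursor to the Golgi apparatus, where proteases free the part that enters the nucleus, and INSIG proteins hold it back when sterols are abundant. Its targets turn citrate into acetyl-CoA, acetyl-CoA into palmitate, and palmitate into longer and unsaturated fatty acids, and insulin, liver X receptors and dietary unsaturated fat are known to act on this program. In skin, keratinocytes use fatty acids for membranes and for the lipids of the permeability barrier, and sebaceous glands use the same enzymes to make sebum. The transcript level measured here says nothing of how much SREBP-1 protein was processed.

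Expression is given as FPKM, a read density scaled by gene length and by a factor for each library. It compares levels between genes per length. Group differences were fitted with limma on log2(FPKM + 1) and are printed with their SE. Their p-values were adjusted by the Benjamini-Hochberg method over the 10367 genes that averaged 1 FPKM or more, and a gene was called at an adjusted p under 0.05. The added 1 makes the change of low genes look smaller than it is. Depth was estimated at 23.6 to 35.8 M reads (median 31.3). This gave Srebf1 about 5369 to 10708 reads per library and Me1 about 325 to 893. The basal keratins Krt5 and Krt14 stood at 10300 to 14400 and 11000 to 14800 FPKM, and Cd34 reached at most 0.0671 FPKM. These are bulk samples, so fewer cells that express a gene and less RNA per cell cannot be told apart.

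Of the 10 genes, 8 passed the minimum of 1 FPKM. Averaged over the 9 libraries, Srebf1 stood highest at 48.6 FPKM, beside Scd2 at 47.0 and Scd1 at 43.6. Acly followed at 31.8 and Fasn at 18.1 FPKM. Elovl6 at 7.39, Me1 at 5.20 and Acaca at 3.41 FPKM formed a lower tier. Fads1 at 0.816 and Fads2 at 0.294 FPKM fell under the minimum. The neighbours in this order overlapped in their library ranges at the top, where Srebf1 spanned 33.7 to 60.9, Scd2 37.1 to 58.0 and Scd1 31.1 to 60.1 FPKM. Elovl6, at 4.18 to 12.1, also overlapped Me1, at 3.27 to 7.01 FPKM. The cells held abundant message for the regulator and for both stearoyl-CoA desaturases, and little for the 2 desaturases of polyunsaturated fatty acids.

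**Figure D1:**
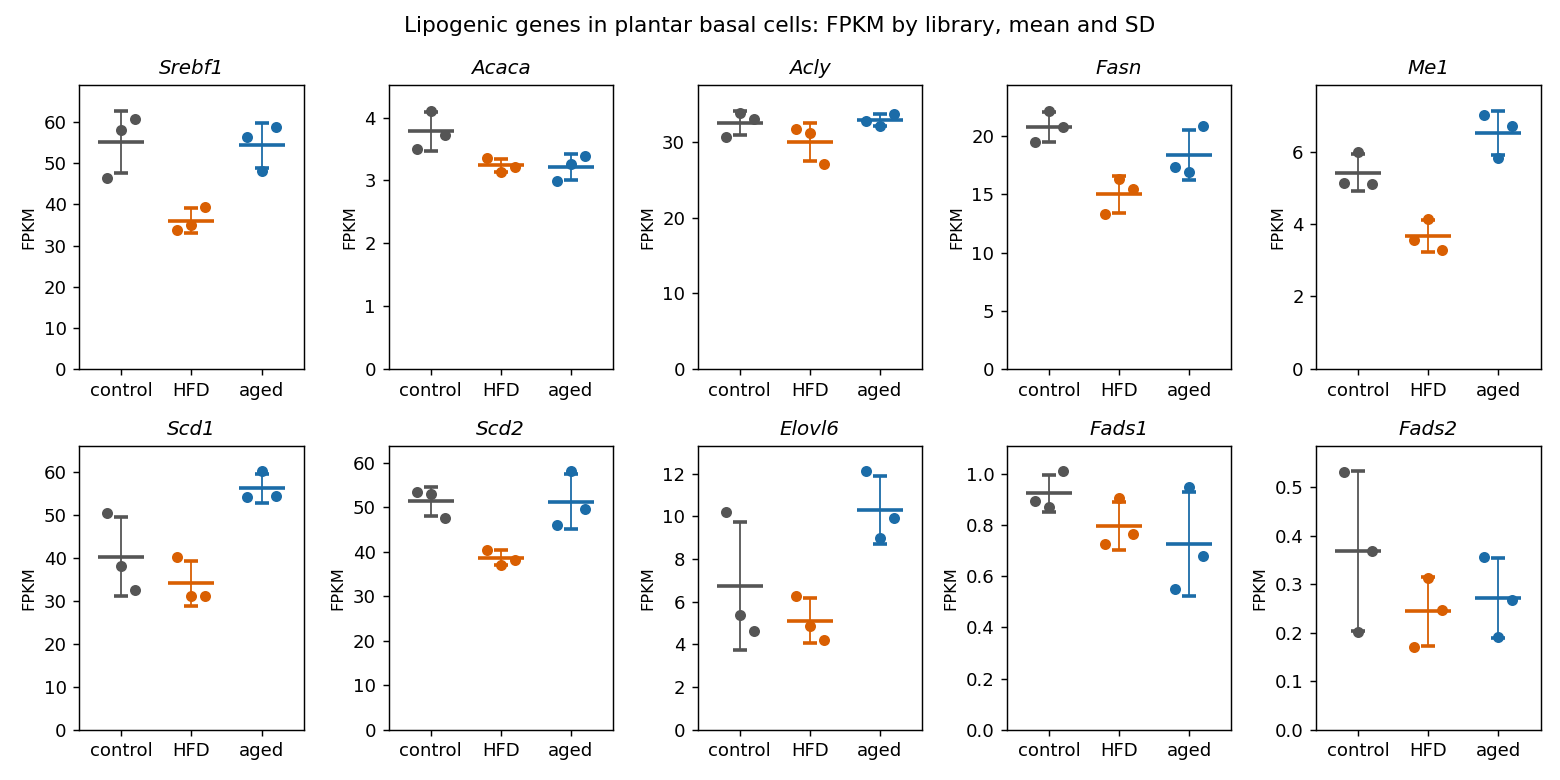
FPKM of the 10 genes in each of the 9 libraries (points), with the mean and SD of each group of 3 libraries, 1 panel per gene with its own linear axis from 0. The HFD libraries of Srebf1 sit between 33.7 and 39.4 FPKM, under all 6 others, and the aged libraries of Scd1 sit between 54.2 and 60.1 FPKM, above all others.

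Promoter sequences were looked at because the regulator and several targets moved together. RefSeq promoter windows on GRCm38.p6 (250 bases before to 50 after a start) were found for 7 of the 10 genes, in 10 windows, with 3 of them at Srebf1. The windows of Fasn and of the innermost Srebf1 start are shown upstream of the start. They were picked because both genes fell in HFD cells and both windows hold the letters CCAAT, the NF-Y box, on either strand. A choice by outcome and motif cannot show a link between them. NF-Y is a general factor known to act beside SREBPs. Capitals mark CCAAT or its reverse complement, the sequences run 5′ to 3′ on the gene's own strand, and the start follows the last base. The Fasn stretch is chr11:120824548-120824797 (minus strand) and the Srebf1 stretch is chr11:60210472-60210721 (minus strand).
Fasn: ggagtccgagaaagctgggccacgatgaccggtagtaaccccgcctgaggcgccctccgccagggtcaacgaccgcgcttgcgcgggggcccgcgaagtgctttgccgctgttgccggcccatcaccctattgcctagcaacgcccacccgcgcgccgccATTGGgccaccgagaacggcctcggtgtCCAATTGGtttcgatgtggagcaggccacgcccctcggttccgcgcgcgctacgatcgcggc
Srebf1: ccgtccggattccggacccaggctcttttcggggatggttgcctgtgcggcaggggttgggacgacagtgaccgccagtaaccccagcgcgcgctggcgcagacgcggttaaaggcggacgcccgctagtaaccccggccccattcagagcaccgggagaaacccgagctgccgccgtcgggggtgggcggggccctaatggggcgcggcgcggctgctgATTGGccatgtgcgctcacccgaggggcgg

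In Fasn the 3 matches began 90, 62 and 59 bases before the start, and the last of them overlapped the one before it. In Srebf1 the match began 30 bases before the start. Over both strands, CCAAT was present in 5 of the 10 windows (Fasn, Acly, 2 of Srebf1 and 1 of Me1), against 37.4% of all 32851 windows in the table. Acly was not called in HFD cells, and another window of Me1 and another of Srebf1, both called, held none. Acaca and Elovl6, which were not called with the diet, held none, and Scd2 had no window. Whether the box has a part in the falls was not tested. The GC box GGGCGG was also present in 5 of 10, against 35.7% of all windows. The E-box CACGTG was in 0 of 10 windows, against 7.15% of all. The sterol regulatory element spelled TCACNCCAC was in 0 of 10 windows, against 1.24% of all, and these letters can lie outside the window or be spelled otherwise.

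Srebf1, the regulator, fell in HFD cells. It stood at 46.5, 58.1 and 60.9 FPKM in control replicates 1 to 3 and at 33.7, 35.1 and 39.4 FPKM in HFD replicates 1 to 3. Every HFD library was below every control library, and the mean dropped from 55.2 ± 7.60 to 36.1 ± 2.98 FPKM (SD, n = 3 each), a difference of -34.6%. The log2 fold change was -0.59 ± 0.11 with an adjusted p of 0.00591 (limma). The GC correction moved it to -0.43 with the call kept (adjusted p = 0.0133). Aged cells held 56.3, 48.2 and 58.8 FPKM, within the range of the controls (mean 54.4 ± 5.52, SD). Against control the aged difference was -0.01 ± 0.11 on the log2 scale, with a 95% interval of -0.25 to 0.23 and an adjusted p of 0.948. Against HFD, aged Srebf1 was higher by 0.58 ± 0.11 (adjusted p = 0.0097), which is also the test of whether the HFD and aged differences from the shared controls differ. Both calls held in all 21 alternative settings, leave-one-out included, with adjusted p-values of at most 0.0417. Median-ratio scaling, 1 of the 21, had a factor of 1.003 in every library, so it could hardly change a result. Srebf1 lies on chromosome 11 at 60199089 to 60222581 (GRCm38, minus strand), its 12 annotated transcripts were not told apart, and 1.9% of its exon bases overlap Rai1 on the opposite strand.

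Acly and Me1 supply the substrates, and of the pair Me1 was called and Acly was not. Acly, ATP citrate lyase, splits cytosolic citrate into acetyl-CoA and stood at 30.7, 33.8 and 33.0 FPKM in the controls, 31.7, 31.2 and 27.1 in HFD libraries and 32.7, 32.1 and 33.7 in aged ones. The HFD libraries overlapped the controls, and the log2 differences were -0.11 ± 0.08 for HFD (adjusted p = 0.321) and 0.02 ± 0.08 for aged (adjusted p = 0.912). Me1, malic enzyme of the cytosol, makes NADPH, the reducing power for each round of chain building. It stood at 5.14, 6.00 and 5.10 FPKM in the controls, 3.57, 4.14 and 3.27 in HFD libraries and 7.01, 5.82 and 6.70 in aged ones. All HFD libraries were below all controls, and the aged libraries overlapped the controls at their lower end. The mean of Me1 fell from 5.42 ± 0.510 to 3.66 ± 0.443 FPKM with the diet (SD, n = 3). Its log2 fold change was -0.46 ± 0.10 (adjusted p = 0.0123). Aged cells, at 6.51 ± 0.616 FPKM, were above HFD cells by 0.69 ± 0.10 (adjusted p = 0.00307), and their difference from control was 0.23 ± 0.10 (adjusted p = 0.181). The HFD call of Me1 was lost without control replicate 2 (adjusted p = 0.054), and 21.08% of its 50-base stretches also occur in the pseudogene Gm7049.

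Acaca and Fasn carry out the synthesis itself, and Fasn fell in HFD cells. Acaca encodes acetyl-CoA carboxylase 1, which makes malonyl-CoA in the committed step. It stood at 3.50, 4.11 and 3.72 FPKM in the controls, 3.35, 3.14 and 3.22 in HFD libraries and 2.99, 3.27 and 3.39 in aged ones. Both other groups lay under the lowest control library, but by little, and neither difference passed the test (log2 -0.17 ± 0.09 for HFD, adjusted p = 0.188, and -0.18 ± 0.09 for aged, adjusted p = 0.217). In Acaca, 29.16% of the 50-base stretches also occur in the processed pseudogene Gm5182, so part of its reads may not have been assigned. Fasn encodes fatty acid synthase, the large enzyme that builds palmitate from malonyl-CoA. It stood at 19.5, 22.2 and 20.8 FPKM in the controls, 13.3, 16.3 and 15.5 in HFD libraries and 17.4, 16.9 and 20.9 in aged ones. The highest HFD library was below the lowest control and the lowest aged library, and the aged libraries overlapped the controls. The mean of Fasn fell from 20.8 ± 1.31 to 15.0 ± 1.56 FPKM (SD, n = 3), a difference of -27.8% (log2 fold change -0.45 ± 0.10, adjusted p = 0.0124). Aged cells were at 18.4 ± 2.15 FPKM, and their differences from control (-0.18 ± 0.10, adjusted p = 0.282) and from HFD (0.27 ± 0.10, adjusted p = 0.113) did not pass the test. Without control replicate 2 the HFD call of Fasn was lost (adjusted p = 0.0539), and the GC correction moved it to -0.29 with the call kept (adjusted p = 0.0302).

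Elovl6, the elongase that takes palmitate to stearate, was higher in aged than in HFD cells. It stood at 10.2, 5.39 and 4.64 FPKM in the controls, 6.25, 4.87 and 4.18 in HFD libraries and 12.1, 8.98 and 9.90 in aged ones. Control replicate 1 lay near the aged libraries while the other two controls lay within the HFD range, so the control SD (6.74 ± 3.0) was the widest of the 3 groups. Aged cells, at 10.3 ± 1.61 FPKM, were 2.02-fold HFD cells, at 5.10 ± 1.05 (log2 difference 0.90 ± 0.22, adjusted p = 0.0305). That call was lost without HFD replicate 2 (0.0861), HFD replicate 3 (0.108), aged replicate 1 (0.102) or aged replicate 3 (0.0559), all as adjusted p, and with no filter on low genes (0.101). Aged against control the difference was 0.61 ± 0.22 (95% interval 0.13 to 1.09, adjusted p = 0.109). It became 0.91 with an adjusted p of 0.0111 without control replicate 1. It was 0.50 without control replicate 2 (adjusted p = 0.272) and 0.41 without control replicate 3 (adjusted p = 0.318). The HFD difference from control was -0.29 ± 0.22 (adjusted p = 0.38), and 0.0092 without control replicate 1.

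Scd1 and Scd2 encode stearoyl-CoA desaturases, which put the first double bond into stearate and palmitate. Scd2 fell with the diet, and both were higher in aged than in HFD cells. Scd1 stood at 50.5, 38.0 and 32.5 FPKM in the controls, 40.2, 31.2 and 31.1 in HFD libraries and 54.2, 60.1 and 54.4 in aged ones. All aged libraries of Scd1 were above all others, while HFD and control overlapped. Scd2 stood at 53.4, 52.9 and 47.5 FPKM in the controls, 40.4, 37.1 and 38.2 in HFD libraries and 46.0, 58.0 and 49.5 in aged ones. All HFD libraries of Scd2 were below all others, while aged and control overlapped. Scd2 fell with the diet from 51.3 ± 3.28 to 38.6 ± 1.71 FPKM (SD, n = 3), a difference of -24.7% (log2 fold change -0.40 ± 0.09, adjusted p = 0.0135). This call was lost without control replicate 2 (adjusted p = 0.0548) or HFD replicate 2 (0.0523). The HFD difference of Scd1 was -0.22 ± 0.14 (adjusted p = 0.30).

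In aged cells Scd1 averaged 56.2 ± 3.36 FPKM against 40.3 ± 9.22 in control (SD, n = 3), a log2 difference of 0.49 ± 0.14 that missed the threshold (adjusted p = 0.0588). Without control replicate 1, whose Scd1 was the highest of the controls, it was 0.66 with an adjusted p of 0.0144. It was 0.46 without control replicate 2 (adjusted p = 0.155) and 0.35 without control replicate 3 (adjusted p = 0.185). The aged difference of Scd2 from control was -0.01 ± 0.09, with a 95% interval of -0.20 to 0.19. Against HFD both genes were higher in aged cells, Scd1 by 0.71 ± 0.14 (adjusted p = 0.0128) and Scd2 by 0.39 ± 0.09 (adjusted p = 0.0231). The Scd1 call was lost without HFD replicate 2 (0.0535) or HFD replicate 3 (0.0532). The Scd2 call was lost without HFD replicate 2 (0.0856), HFD replicate 3 (0.0736) or aged replicate 2 (0.065). With no filter on low genes they stood at 0.0544 and 0.0538.

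The share of Scd1 in the summed FPKM of Scd1 and Scd2 was 48.6%, 41.8% and 40.6% in control, 49.8%, 45.7% and 44.9% in HFD and 54.1%, 50.9% and 52.4% in aged libraries. Aged libraries had the highest shares with no overlap, at a mean of 52.4% ± 1.62 against 43.7% ± 4.31 in control and 46.8% ± 2.66 in HFD (SD, n = 3). An exact two-sided permutation test gave p = 0.1 for aged against either other group, the smallest p that 3 against 3 allows, and p = 0.3 for HFD against control. The genes lie close together on chromosome 19 (GRCm38, Scd2 at 44293674 to 44306864 on the plus strand and Scd1 at 44394455 to 44407879 on the minus strand). They share 145 stretches of 50 bases, which is 2.97% of Scd1 and 2.66% of Scd2, so some reads could have been assigned to neither or to the wrong gene. Scd3, another member of the family, reached at most 0.331 FPKM.

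Fads1 and Fads2 encode the delta-5 and delta-6 desaturases of polyunsaturated fatty acids, and both were low. Fads1 stood at 0.895, 0.871 and 1.01 FPKM in the controls, 0.725, 0.905 and 0.764 in HFD libraries and 0.552, 0.948 and 0.678 in aged ones. Fads2 stood at 0.532, 0.201 and 0.369 FPKM in the controls, 0.171, 0.314 and 0.247 in HFD libraries and 0.357, 0.191 and 0.267 in aged ones. The groups overlapped for both genes. These values rest on about 88 to 151 reads per library for Fads1 and 16 to 57 for Fads2. Tested without the filter, their adjusted p-values were 0.547 and 0.429 for HFD against control, 0.338 and 0.577 for aged against control and 0.747 and 0.90 for aged against HFD, so no difference was detectable.

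Counted over the 10 genes, 4 were called lower in HFD than in control cells (Srebf1, Fasn, Me1 and Scd2), 0 were called higher, 4 were tested and not called, and Fads1 and Fads2 were not tested. Of all genes tested, 8.76% were called lower and 8.26% higher. All 8 tested genes had a negative fold change, with a median of -0.34, beside a median of 0.01 over all genes. Without control replicate 2 the count was 1, Srebf1 alone, and without HFD replicate 2 it was 3. The HFD libraries lay wholly below the controls in 5 of the 10 (the 4 called genes and Acaca) and wholly above in 0, as they did in 19.6% and 20.8% of all genes tested.

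Aged against control, 0 of the 10 were called in either direction, where 4.01% of all genes were called higher and 3.74% lower. Of the 8 tested, Elovl6, Scd1, Me1 and Acly had positive differences and Acaca, Fasn, Srebf1 and Scd2 negative ones. The aged libraries lay wholly above the controls for Scd1 and wholly below for Acaca, which 13.7% and 14.1% of all genes did. At an unadjusted p under 0.05 there were 2674 genes in this comparison, among them Scd1 (0.00527), Elovl6 (0.0173) and Me1 (0.0447). Aged against HFD, 5 were called higher (Elovl6, Scd1, Me1, Srebf1 and Scd2) and 0 lower, where 3.54% of all genes were called higher and 4.45% lower. The median over the 8 was 0.49, beside 0.00 over all genes. The aged libraries lay wholly above the HFD libraries in 7 of the 8, all but Acaca, and wholly below in 0, beside 13.9% and 15.9% of all genes. Leaving out 1 library at a time gave 2 to 5 genes in this comparison and 0 to 2 in the former, where 2 (Scd1 and Elovl6) came without control replicate 1. The HFD libraries serve in both contrasts that called these genes, so the falls with diet and the differences of aged from HFD are not independent. Across the 3 groups the F test called 6 of the 8, all but Acaca and Acly, beside 20.4% of all genes.

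**Figure D2:**
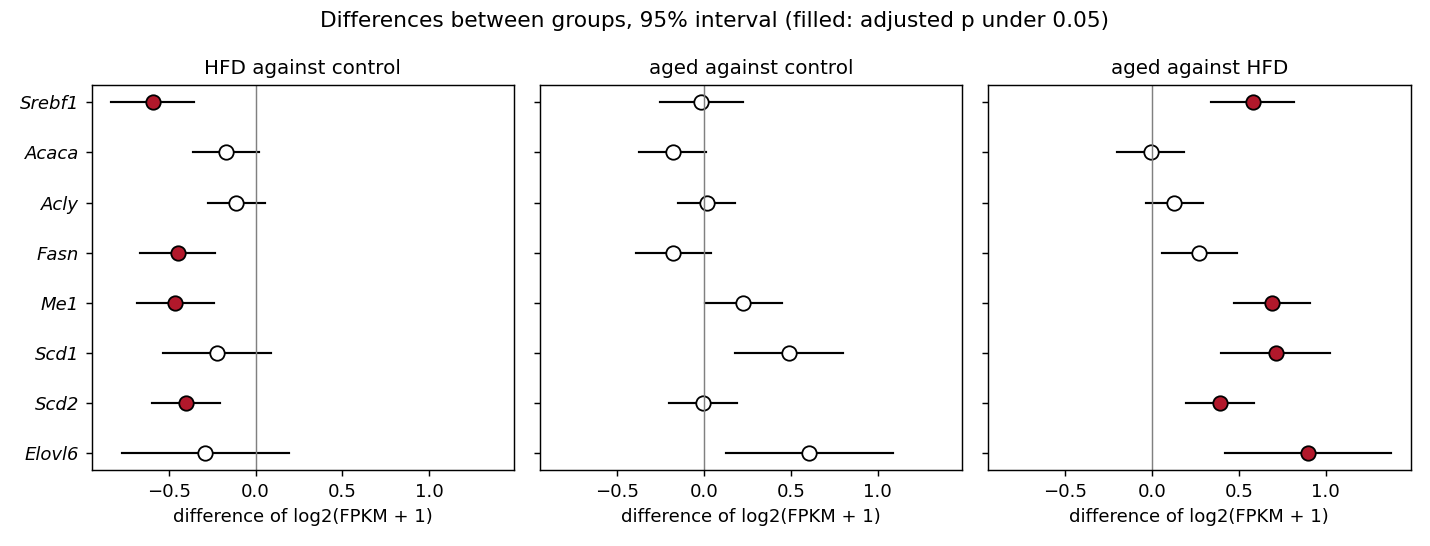
Differences of log2(FPKM + 1) between groups for the 8 tested genes, with 95% intervals from limma, in the 3 comparisons (filled where called). HFD against control lies to the left of 0 for all 8, aged against control straddles 0, and aged against HFD lies to the right for all but Acaca.

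Markers of other lipogenic cells were measured beside these genes. Of 11 sebocyte markers 2 reached a mean of 1 FPKM, Krt79, a keratin of the sebaceous duct and upper follicle, and Cidea, a lipid droplet protein. Their list summed to 61.1, 70.2 and 22.0 FPKM in the controls, 42.5, 43.9 and 25.0 in HFD libraries and 131, 93.6 and 101 in aged ones, with Krt79 making up 88.6% to 94.0% of each sum. The aged sums were above all others, as the aged Scd1 values were. Without Krt79 the sums were 6.98, 4.34 and 1.75 in control, 2.56, 2.84 and 1.99 in HFD libraries and 10.1, 6.77 and 6.57 in aged ones. Among the controls, replicate 1 was highest and replicate 3 lowest in this sum, in Elovl6 and in Scd1. In the sum with Krt79, replicate 2 was the highest control. Cidea was higher in aged than in HFD cells by 1.50 ± 0.27 (adjusted p = 0.00783, and by 2.67 with a pseudocount of 0.1), and Krt79 by 1.54 ± 0.35 (adjusted p = 0.0237). The Krt79 call was lost without HFD replicate 3, without aged replicate 1, with no filter on low genes and with the robust setting (adjusted p of at most 0.0915). Awat2, Mogat2 and Scd3 of this list reached at most 0.995, 0.0175 and 0.331 FPKM, and Far2 and Elovl3 1.19 and 1.04. From control to aged means, Elovl3 (0.411 to 0.907), Far2 (0.589 to 0.879), Soat1 (0.276 to 0.588), Pparg (0.732 to 1.4) and Awat1 (0 to 0.188) were higher. Awat2 (0.633 to 0.503), Mc5r (0.242 to 0.221) and Mogat2 (0.00582 to 0) were lower, and Scd3 was nearly level (0.22 to 0.222 FPKM). None of these averaged 1 FPKM over the 9 libraries. The part of sebocytes in the aged levels of Elovl6 and Scd1 was not tested.

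**Figure D3:**
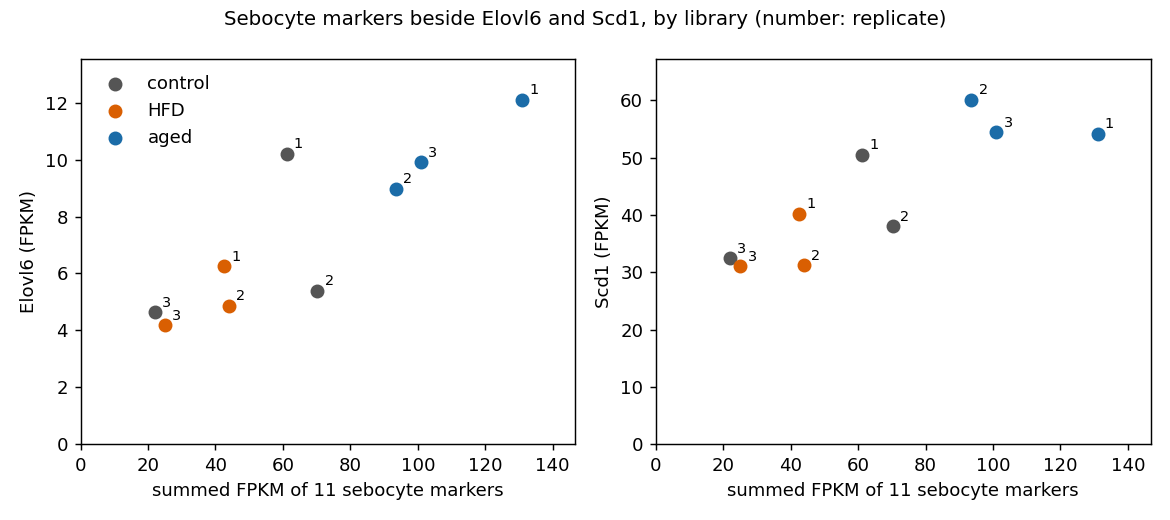
FPKM of Elovl6 and Scd1 (vertical axes) against the summed FPKM of the 11 sebocyte markers in the 9 libraries, linear axes from 0, colours for the groups and numbers for the replicates. The 3 aged libraries lie at sums of 93.6 to 131 with the highest Scd1 values. Control replicate 1, at 61.1, has the highest Elovl6 of the controls. Control replicate 2 has the highest sum of the controls, 70.2, with Elovl6 at 5.39 and Scd1 at 38 FPKM.

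Of 12 adipocyte markers 8 were under 0.1 FPKM in every library. None had a mean of 1 FPKM, their sums ranged from 1.52 to 4.19 FPKM, Cfd, Retn and Car3 were at 0 in all libraries, and Adipoq, Plin1 and Fabp4 reached at most 0.0561, 0.0167 and 0.0462 FPKM. Pparg, which is in both this list and that of sebocytes, ranged from 0.287 to 2.56 FPKM. Markers of differentiating keratinocytes summed to 6410 to 8140 FPKM in the controls, 6050 to 8460 in HFD and 7850 to 10900 in aged libraries. Of these, Krt1 was called higher in aged than in control cells (0.61 ± 0.13, adjusted p = 0.0198) and Krt10 was not (0.53 ± 0.17, adjusted p = 0.0761). The Krt1 call was lost with no filter on low genes and without control replicate 1 or 3 or aged replicate 1 or 2 (up to 0.0877). Basal keratinocyte markers summed to 23800 to 24900 FPKM in aged, 27100 to 31800 in HFD and 24000 to 30700 in control libraries, so aged and HFD did not overlap. The part of these shifts in the aged differences was not tested. The sweat gland list moved with the diet, at sums of 42.4 to 51.3 FPKM in HFD against 25.9 to 27.4 in control and 26.9 to 30.5 in aged libraries. Its level came from Slc12a2, Acta2 and Ehf, while Krt8, Krt18 and Krt19 stayed under 1 FPKM and Foxi1, Foxa1 and Cftr were at 0. The fibroblast sum was 1.50 to 2.55 FPKM in HFD and 4.55 to 6.76 in control, nearly all of it Dcn. Whether these lists have a part in the HFD values was not tested.

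Of 14 genes that process or regulate SREBP proteins 13 were tested, and in HFD cells 3 were called lower and 0 higher, where 8.76% and 8.26% of all genes were. They were the paralog Srebf2, the cofactor Crebzf and the escort Scap. The proteases Mbtps1 (-0.0016 ± 0.07, adjusted p = 0.991) and Mbtps2 (-0.06 ± 0.08, adjusted p = 0.631) were not called, nor was Insig2 (0.14 ± 0.10, adjusted p = 0.376). Srebf2, the paralog that drives cholesterol synthesis, fell from 37.4 ± 0.158 to 23.9 ± 1.45 FPKM (a log2 difference of -0.63 ± 0.08, adjusted p = 0.00135) and was higher again in aged than in HFD cells (0.42 ± 0.08, adjusted p = 0.00892). Crebzf, a leucine zipper cofactor known to act on Insig expression in liver, fell from 19.4 ± 3.29 to 12.1 ± 0.797 FPKM (-0.63 ± 0.12, adjusted p = 0.00709). Scap, the escort, was called at -0.36 ± 0.10 (adjusted p = 0.0303), but its call was lost in 8 of 21 alternatives, among them without control replicate 2 or 3 or any 1 of the HFD replicates (adjusted p of at most 0.115), and with the GC correction, which moved it to -0.18. Insig1 stood at 5.82 ± 1.25 FPKM in the controls, 3.93 ± 0.816 in HFD and 4.15 ± 0.716 in aged cells and was not called (adjusted p = 0.0659 for HFD). The median over the 13 was -0.04, near that of all genes. Of 15 tested transcription factors and cofactors of lipogenesis, 1 was called lower with the diet, Nr1h2, a liver X receptor (-0.42 ± 0.11, adjusted p = 0.0273, lost in 7 of 21 alternatives, among them without control replicates 2 and 3 and HFD replicates 1 and 2, each left out alone, at up to 0.101, and -0.20 with the GC correction). Mlxipl (ChREBP), Nr1h3 and Pparg were under the minimum of 1 FPKM.

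In the supply of acetyl-CoA, citrate and NADPH, 2 of 15 tested genes were called lower and 2 higher in HFD cells, small counts beside the 8.76% and 8.26% of all genes. Slc25a1, the carrier that brings citrate out of the mitochondrion to Acly, fell from 31.0 ± 0.997 to 18.6 ± 2.19 FPKM (-0.71 ± 0.09, adjusted p = 0.00147) and was higher in aged than in HFD cells (0.49 ± 0.09, adjusted p = 0.00867). These calls held in all 21 alternatives. Aacs, which activates acetoacetate, was called lower (-0.40 ± 0.12, adjusted p = 0.0391), and Pdha1 (0.27) and Cs (0.20), of mitochondrial pyruvate and citrate metabolism, were called higher (adjusted p = 0.0277 and 0.0433). The latter 3 calls were each lost in 8 to 11 alternatives, with adjusted p-values of up to 0.142, including without any 1 of the control replicates, without HFD replicate 1 or 3, and with the GC correction, which moved Aacs to -0.26. The other cytosolic NADPH sources were not called: G6pdx stood at 33.6 FPKM in control and 30.7 in HFD, and Idh1 at 23.0 in both.

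Among 34 other genes of fatty acid synthesis, elongation and desaturation, 24 were tested, and HFD cells had 2 called lower and 3 higher, shares near the 8.76% and 8.26% of all genes. Elovl5, the elongase of polyunsaturated chains, fell from 4.81 ± 0.848 to 2.85 ± 0.677 FPKM (-0.60 ± 0.14, adjusted p = 0.0157) and was also lower in aged cells (-0.54 ± 0.14, adjusted p = 0.0368). Tecr, the last reductase of each elongation round, fell by 0.28 ± 0.07 (adjusted p = 0.0233). Fads3, a desaturase relative of Fads1 and Fads2, rose from 1.06 ± 0.279 to 2.07 ± 0.284 FPKM (0.59 ± 0.15, adjusted p = 0.0215). The other two that rose, named after their values were seen, were the acyl-CoA synthetase Acsl3 (0.52, adjusted p = 0.0258) and the AMPK subunit Prkaa1 (0.27, adjusted p = 0.0421). All 5 calls were lost without control replicate 2 and without at least 1 of the HFD replicates, and each in 3 to 11 alternatives with adjusted p-values of up to 0.367. With the GC correction Tecr was at -0.15 and Prkaa1 at 0.12, and with a pseudocount of 0.1 Fads3 was at 0.93. The aged call of Elovl5 was lost in 7, among them without control replicate 1 or 2 or any 1 of the aged replicates (up to 0.114). The list's median was -0.03 with the diet, beside 0.01 over all genes.

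Glycerolipid synthesis, which uses the fatty acids made, had 2 of 19 tested genes called lower and 1 higher in HFD cells, shares near the 8.76% and 8.26% of all genes. Pcyt2, of phosphatidylethanolamine synthesis, fell from 16.9 ± 0.889 to 10.3 ± 0.726 FPKM (-0.66 ± 0.09, adjusted p = 0.00147, held in all 21 alternatives). Gpam, the first acyltransferase of the pathway and an SREBP-1 target, fell from 8.05 ± 0.726 to 5.88 ± 0.737 FPKM (-0.40 ± 0.09, adjusted p = 0.0178) and was higher in aged than in HFD cells (0.43 ± 0.09, adjusted p = 0.0205). Its diet call was lost without control replicate 1, control replicate 2, HFD replicate 1 or HFD replicate 3 (at most 0.0674 as adjusted p). The other call was lost with no filter on low genes and without HFD replicate 1 or 3 or aged replicate 2 or 3 (up to 0.0706). Plin2, the coat of lipid droplets, went the other way, from 12.7 ± 1.93 to 17.6 ± 1.35 FPKM (0.45 ± 0.11, adjusted p = 0.0171, lost without control replicate 2 or HFD replicate 1, at up to 0.0622). Agpat3, an acyltransferase, stood at 9.06 ± 0.384 FPKM in aged cells against 5.91 ± 0.613 in HFD (0.55 ± 0.10, adjusted p = 0.00773, held in all 21 alternatives). With Gpam and Dgat2 it made 3 genes called higher in aged than in HFD cells, and 0 were called lower. Of all genes, 3.54% were called higher and 4.45% lower in this comparison. Dgat2, of the final step to triglyceride and named after its values were seen, differed by 0.49 ± 0.12 (adjusted p = 0.0266). Its call was lost with no filter on low genes and without HFD replicate 1 or 3 or aged replicate 1 or 3 (up to 0.0987). Against control, Agpat3 was called higher in aged cells (0.43, adjusted p = 0.025) and Pcyt2 lower (-0.35, adjusted p = 0.0355). Of all genes, 4.01% were called higher and 3.74% lower in that comparison. The Agpat3 call was lost in 4 alternatives, among them without control replicate 3 or aged replicate 1 or 2 (up to 0.0879). The Pcyt2 call was lost in 9, among them without any 1 of the controls or aged replicate 2 or 3 (up to 0.146).

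Among liver X receptor targets, those called against control were higher. Of 7 tested, 2 were called higher in HFD cells and 4 in aged cells against control, and 0 were called lower in either. Among all genes, 8.26% were called higher and 8.76% lower in HFD cells, and 4.01% and 3.74% in aged cells. In each contrast against control, 5 of the 7 had positive and 2 negative differences. Aged against HFD, 1 was called higher and 1 lower, beside 3.54% and 4.45% of all genes. The lower was Pltp (-0.50 ± 0.13, adjusted p = 0.0363, lost in 5 alternatives). Mylip, which encodes a ubiquitin ligase, rose from 18.4 ± 0.808 FPKM in control to 29.5 ± 1.17 in HFD (0.65 ± 0.07, adjusted p = 0.00135) and 25.8 ± 1.99 in aged cells (0.46 ± 0.07, adjusted p = 0.00517), in all 21 alternatives. Pltp, a phospholipid transfer protein, rose with the diet (0.48 ± 0.13, adjusted p = 0.0268) and the cholesterol exporter Abcg1 with age (0.53 ± 0.12, adjusted p = 0.0219). These calls were lost in 5 and 4 alternatives, both without control replicate 1 or 2, Pltp also without HFD replicate 2 or 3 and Abcg1 without aged replicate 1, at adjusted p-values of up to 0.0998. The other two called with age, named after their values were seen, were the exporter Abca1 (0.42, adjusted p = 0.0467) and Smpdl3a (0.42, adjusted p = 0.0395). They were lost in 11 and 9 alternatives, among them without control replicate 2 or 3, any 1 of the HFD replicates, or aged replicate 1 or 2 (up to 0.158). Srebf1 is itself a known liver X receptor target, and it was lower in HFD cells and not called in aged cells against control.

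In cholesterol synthesis, the program of Srebf2, 9 of 22 tested genes were called lower in HFD cells and 0 higher, with a median of -0.35. Among all genes, 8.76% were called lower and 8.26% higher. Differences were negative in 20 of the 22 and positive in 2. Srebf2 counts here and in the processing list. Hsd17b7, a sterol reductase, fell from 7.18 ± 0.51 to 4.69 ± 0.42 FPKM (-0.52 ± 0.09, adjusted p = 0.00468). Mvk, the mevalonate kinase gene, named after its values were seen, fell from 15.1 ± 1.40 to 10.7 ± 0.444 FPKM (-0.46 ± 0.08, adjusted p = 0.00442). Both calls held in all 21 alternatives. Of the 9 calls, 6 held in all alternatives. Aged against control, 2 were called lower and 0 higher, where 3.74% and 4.01% of all genes were. Of the 2, Hmgcs1, named after its values were seen, had an adjusted p of 0.0483 and was lost without any 1 of the 9 libraries.

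**Figure D4:**
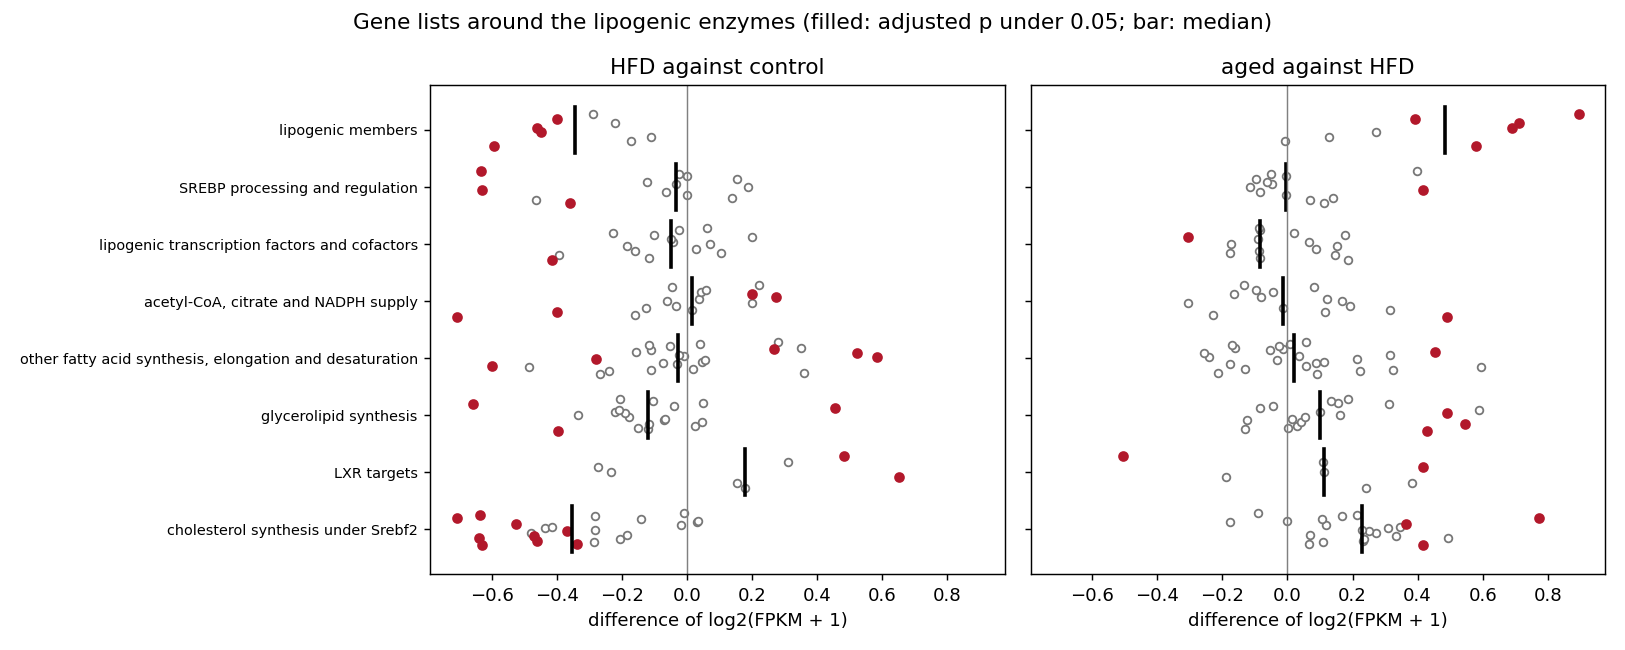
Log2 fold changes of the tested genes in the 8 gene lists, 1 point per gene, filled where called at an adjusted p under 0.05, with the list median as a bar, for HFD against control and aged against HFD. In HFD against control the medians of the lipogenic genes (-0.34) and of cholesterol synthesis (-0.35) lie lowest, and the other lists lie between -0.12 and 0.18.

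The 5 genes outside the set that followed Srebf1 most closely over the 9 libraries, by Pearson's r of log2(FPKM + 1), were the histone demethylase gene Kdm4b (r = 0.988), the helix-loop-helix inhibitor Id1 (0.984), the ubiquitin ligase gene Marchf2 (0.964), the Golgi mannosidase Man2a2 (0.958) and the RNA-binding protein gene Fxr2 (0.954). The 9 points share 3 groups, so each r mostly holds the difference between HFD and the other libraries, and no p is given. Id1 went from 37.2 FPKM in control to 22.7 in HFD and 35.5 in aged cells (-0.69 ± 0.12 with the diet, adjusted p = 0.00435, held in all 21 alternatives). With the diet, Kdm4b (-0.36, adjusted p = 0.0229) and Man2a2 (-0.28, adjusted p = 0.0311) were also called lower. These calls were lost in 7 and 6 alternatives, among them the GC correction. Marchf2 (-0.21, adjusted p = 0.0763) and Fxr2 (-0.22, adjusted p = 0.0772) were not called. Within the set, Fasn (0.859) and Me1 (0.836) lay closest to Srebf1, then Scd2 (0.676), Acly (0.614) and Acaca (0.436), and Scd1 (0.370) and Elovl6 (0.349) lay farthest.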

How the data were processed

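RNA-seq libraries (TruSeq stranded mRNA, NextSeq, per the labels' protocols) were made from 9 samples, 3 per group. The authors deposited 1 table of FPKM per gene and library. The submitters' processing notes name mm10, DESeq2 1.30.0, HTSeq 0.11.2, STAR 2.6.0c and cutadapt, without their roles. How FPKM was computed, with which gene lengths, and whether strand was used are not given in the sources used here. Genes sharing sequence or overlapping others are therefore uncertain. The study's single-cell data were not used here.

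FPKM were tested as log2(FPKM + 1) with limma 3.58.1 (R 4.3.3, eBayes with a trend, 1 mean per group, 6 residual degrees of freedom, two-sided), for genes averaging 1 FPKM or more, with Benjamini-Hochberg adjustment. The steps were tested on simulated data. Depth was estimated from low FPKM, of which 97.5% to 98.0% fell on whole reads (tolerance 0.02). No count test was run on these reads. Gene models came from GENCODE M21 on GRCm38, and promoters from RefSeq on GRCm38.p6. Deviations of same-numbered samples of different groups from their group means correlated at -0.052 to 0.274. Those of differently numbered samples correlated at -0.286 to 0.218. The titles number the samples within each group, but the labels do not say what a number marks, so replicate numbers were not used as pairs. Alternatives were a pseudocount of 0.1, other filters (none, or a mean of 5 FPKM), other scalings, a GC correction, library weights and the robust setting. Further ones were only the 6 libraries compared, a replicate block, and dropping each library in turn. The deposited values already had a median-ratio factor of 1.003 in all 9 libraries, so that scaling could hardly change a result. Total FPKM differed between libraries.

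The genes and the gene lists were chosen with earlier results of these data known. Named genes were all 10 genes, up to 4 tested genes per other list with the smallest unadjusted F test p, and the 5 genes most like Srebf1, predicted models left out; some other called list genes were added where a count needed them. Protein sequences were not used here. Results for a few genes are not reported here.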

Additional observations from a re-analysis of the deposited data

How the results depend on the processing

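Over 21 alternatives (20 for Acaca), the 8 tested genes gave 501 results, of which 461 kept direction and call, 16 lost a call, 7 gained one and 17 turned direction, none of them called. Median-ratio scaling, 1 of the 21, could hardly change a result. The turned values were close to 0 on the log2 scale. Leaving out 1 library at a time, the opposite ends were -0.1299 (Srebf1), -0.0999 (Scd2), 0.0446 (Acly), -0.0385 (Acaca) and -0.4836 (Elovl6) in the comparisons below. For Srebf1, aged against control, the turned values were 0.0728 with the GC correction, 0.0728 with GC and block, and 0.0271, 0.0601 and 0.069 without control replicate 2, control replicate 3 or aged replicate 2. For Scd2, aged against control, they were 0.0266 with library weights and 0.0222, 0.0166, 0.0654 and 0.0129 without control replicate 1, control replicate 2, aged replicate 1 or aged replicate 3. Acly, aged against control, gave -0.0155 scaled to total FPKM and -0.0227 and -0.0016 without control replicate 1 or aged replicate 3. Acaca, aged against HFD, gave 0.0046 scaled to total FPKM and 0.0109 and 0.0302 without HFD replicate 1 or aged replicate 1. Elovl6, HFD against control, gave 0.0092 without control replicate 1.

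Genes called among all tested changed by over 1.5 times in a few settings. With no filter, 597 were lower in HFD than control (908 with the filter), 244 lower in aged than control (388) and 225 higher in aged than HFD (367). With the GC correction 555 were lower in HFD, and 598 with GC and block. With only the 6 libraries compared, aged against control gave 274 higher and 195 lower (416 and 388). Scaling to total FPKM moved the share of higher calls from 48.5% to 33.9% for HFD and from 51.7% to 41.4% for aged, both against control. Of the lipogenic genes, no filter left 2 higher in aged than HFD and 3 by the F test. The replicate block gave 2 higher in aged than control (Scd1 and Elovl6, adjusted p = 0.0215 and 0.0155), GC with block gave 2, and library weights gave 1 (Scd1, 0.0497). With the replicate block the F test called 2500 of all genes, beside 2110 without it. The labels do not say whether a number marks a shared experiment. The correlations of same-numbered samples were not all over 0.1, so whether the numbers pair the samples is not known.

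Leaving out 1 library at a time gave 385 to 1039 genes higher and 364 to 1072 lower in HFD than control, 190 to 592 and 114 to 662 in aged against control, 168 to 355 and 200 to 432 in aged against HFD, and 1163 to 2479 by the F test. Lipogenic genes called ranged from 1 to 4 lower in HFD, 0 to 2 higher in aged than control, 2 to 5 higher in aged than HFD, and 4 to 6 by the F test. Fads1 and Fads2 had the fewest reads, 88 to 151 and 16 to 57 per library. The causes of these changes were not tested.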
